A study of Mus musculus with 3 samples.

Results

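T cells were described from droplet single-cell RNA sequencing of 3 neuroblastomas, each the whole tumor of a different TH-MYCN mouse. A kept barcode was called a T cell when its raw counts held at least 2 of the 5 genes Cd3e, Cd3d, Cd3g, Trac and Trbc2, with at least 1 Cd3 gene among them, and fewer than 2 of the B cell genes Cd79a, Cd79b, Ms4a1 and Pax5. The rule found 206 T cells among 5650 kept cells, with 179 in tumor 1, 21 in tumor 2 and 6 in tumor 3. Because the cells were selected on these 9 genes, the levels of those genes are given only as a description.

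All 3 mice were heterozygous for a MYCN transgene that the tyrosine hydroxylase promoter drives in neural crest cells, so that tumor and host share the transgene. There was no wild-type group and no other group to compare with. The mouse of tumor 1 was 62 days old, that of tumor 2 was 79 and that of tumor 3 was 63, and the tumors were dissociated with Liberase and DNase, and were not sorted for immune cells. The study asked which cells make up the microenvironment of this tumor and which inhibitory signals its T cells meet.

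T cells recognize peptides on major histocompatibility complex molecules through a T cell receptor, whose alpha and beta chains signal through the Cd3 chains and the kinase Lck. Helper T cells carry Cd4, cytotoxic T cells carry Cd8a and Cd8b1, and regulatory T cells, a Cd4 lineage set by the transcription factor Foxp3, restrain the others. Naive T cells keep the lymph node homing receptor Ccr7 and the factors Tcf7 and Lef1, while effector cells make granzymes, perforin, chemokines and cytokines.

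The 3 Cd3 genes lie side by side on chromosome 9 of GRCm38, the build that the submitters name as mm10, within 40056 bases. Cd3g spans chr9:44969572-44980431 on the minus strand and Cd3d spans chr9:44981786-44987339 on the plus strand, so that their starts face away from each other across 1355 bases, and Cd3e spans chr9:44998740-45009627 on the minus strand. The RefSeq promoters of the 3 genes (GRCm38.p6, 250 bases before to 50 after the start) are shown because every T cell described here was chosen by a UMI of at least 1 of these genes. Capitals mark matches of the ETS core GGAAG and the RUNX site TGTGGT on either strand, which do not overlap here.

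Cd3g (chr9:44980382-44980681, minus strand): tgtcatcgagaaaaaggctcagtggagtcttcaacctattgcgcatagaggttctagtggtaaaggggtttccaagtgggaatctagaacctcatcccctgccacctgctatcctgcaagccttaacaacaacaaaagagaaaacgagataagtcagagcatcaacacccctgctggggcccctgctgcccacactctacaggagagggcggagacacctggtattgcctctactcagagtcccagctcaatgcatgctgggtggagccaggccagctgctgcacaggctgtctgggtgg

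Cd3d (chr9:44981536-44981835, plus strand): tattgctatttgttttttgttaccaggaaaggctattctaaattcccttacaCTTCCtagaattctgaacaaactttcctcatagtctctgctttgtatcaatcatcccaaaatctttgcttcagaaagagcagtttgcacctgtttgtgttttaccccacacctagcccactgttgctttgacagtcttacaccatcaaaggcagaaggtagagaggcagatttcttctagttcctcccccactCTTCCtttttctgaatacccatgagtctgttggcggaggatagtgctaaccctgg

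Cd3e (chr9:45009562-45009861, minus strand): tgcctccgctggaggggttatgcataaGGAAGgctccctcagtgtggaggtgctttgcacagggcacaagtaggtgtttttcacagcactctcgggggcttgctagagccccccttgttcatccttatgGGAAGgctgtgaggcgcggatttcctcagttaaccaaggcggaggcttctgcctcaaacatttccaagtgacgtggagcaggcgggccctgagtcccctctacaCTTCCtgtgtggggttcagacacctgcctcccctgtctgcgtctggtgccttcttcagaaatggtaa

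The promoter of Cd3g held no match, that of Cd3d held 2 ETS matches and that of Cd3e held 3, and none of the 3 held the RUNX letters. Of 32851 mouse promoters of the same length, 71.4% held the ETS letters and 16.8% the RUNX letters, so that these matches are a description of the sequences and not of binding.

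The T cells summed to 1433144 unique molecular identifiers (UMIs, counted RNA molecules) in tumor 1, 43185 in tumor 2 and 9982 in tumor 3. Their median depth was 5808, 1586 and 1585 UMIs per cell, against 4065, 1596 and 1816 in the other kept cells. In counts per 1000000 UMIs (CPM), 1 UMI was therefore worth 0.698, 23.2 and 100.2 CPM in the 3 sums. The median mitochondrial share of UMIs in T cells was 4.74%, 8.67% and 9.83%, above the 3.0%, 3.0% and 2.44% of the other cells in the same tumor. The libraries shared 8, 1 and 8 barcodes in pairs, and no T cell barcode was shared.

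T cells were frequent in tumor 1 and rare in tumors 2 and 3. They made up 9.35% of 1914 kept cells in tumor 1 (95% interval 8.09 to 10.8%), 1.72% of 1221 in tumor 2 (1.07 to 2.62%) and 0.239% of 2515 in tumor 3 (0.0876 to 0.519%). The intervals of the 3 tumors did not overlap, but each is an exact binomial interval that covers counting error only, and with 1 tumor per animal and 1 group no test between tumors was made. B cells, kept cells with at least 2 of the 4 B cell genes and fewer than 2 of the 5 T cell genes, numbered 222, 13 and 6. NK cells had at least 2 of 6 NK receptor genes and fewer than 2 of the T and of the B cell genes. They numbered 29, 3 and 1, in the same order of tumors. In tumor 1, 11 barcodes met the T cell part of the rule but also had 2 or more B cell genes, and were in none of these classes. With a gate of at least 3 of the 5 genes the shares were 6.17%, 0.573% and 0.199%, in the same order.

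The label was checked against Lck, a marker of T cells that the rule did not use. In tumor 1, Lck was detected in 22 of 26 cells with 4 gate genes, in 67 of 78 cells with all 5, in 7 of 14 cells with 3, but in only 6 of 61 cells with 2. The 376 cells just outside the gate, with 1 gate gene, had Lck in 28. Cells with 2 gate genes also held a median of 1 of 20 further T cell genes, as did the cells just outside, against 7, 11.5 and 14 in cells with 3, 4 and 5 gate genes. Of the 61 cells with 2 gate genes, 38 carried markers of another lineage, as did 6, 8 and 19 of the cells with 3, 4 and 5. Another lineage here means UMIs of at least 3 of 12 macrophage and monocyte genes, 2 of 7 neutrophil genes, 2 of 6 fibroblast genes, 2 of 6 endothelial genes or 3 of 10 tumor cell genes. Median depth was 2836, 4085, 4667 and 6420 UMIs in cells with 2, 3, 4 and 5 gate genes, and 4778 in the cells just outside. The part of depth in the missing Lck and T cell genes was not tested. Markers of another lineage go against the label for many cells of tumor 1 that passed with 2 genes. Values for the 118 cells with 3 or more gate genes are therefore given beside those of all 179. In tumor 2, Lck was found in 5 of 21 T cells, and the 14 cells with 2 gate genes held a median of 3 of the 20 genes, as did the 29 just outside. In tumor 3, Lck was found in 1 of 6 T cells. Doublets were removed by the authors before deposit and no further doublet call was made.

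**Figure D1:**
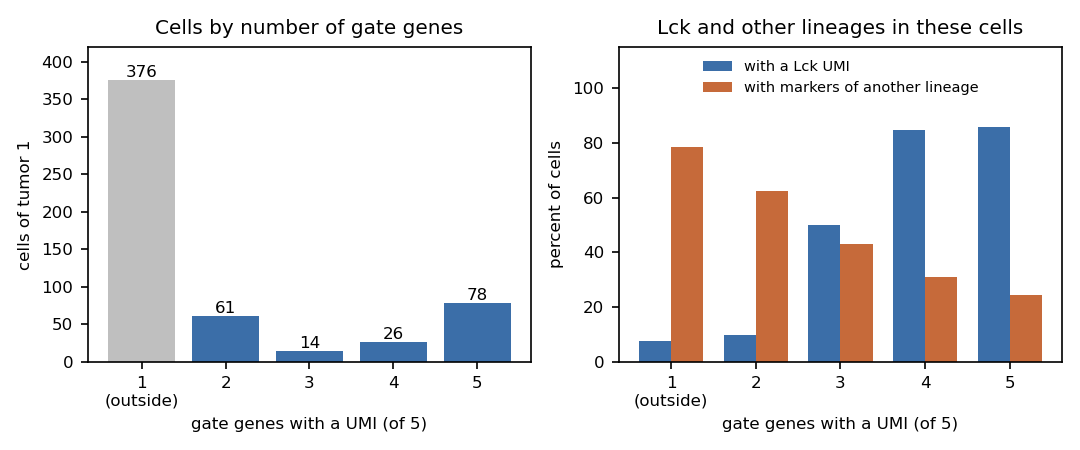
Cells of tumor 1 by the number of the 5 gate genes with a UMI (left, number of cells) and the percent of those cells with a Lck UMI or with markers of another lineage (right). The 376 cells with 1 gene are outside the gate, and the 61 cells with 2 genes stand closer to them in both measures than to the 118 cells with 3 to 5.

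Macrophage and neutrophil UMIs in the T cells of tumor 1 came mostly from a minority of barcodes. Even so, 136 of 179 cells had a UMI of a macrophage gene. The 5 erythroid genes had UMIs in all 179 cells, at 1397 CPM summed. The 6 fibroblast genes had UMIs in 98 cells, at 2797 CPM summed and 1003 CPM in the 118 cells with 3 or more gate genes. The 12 macrophage genes summed to 5668 CPM in the 179 cells, 1726 CPM in the 118 cells with 3 or more gate genes and 11800 CPM in the 61 with 2, with all 12 genes detected. At least 3 of the 12 were found in 38 of the 179 T cells (21.2%, 15.5 to 28.0%), which had a median of 12160 UMIs against 5049 in the other 141, and in 21 of 222 B cells. No T cell of tumors 2 and 3 had 3 macrophage genes. The 7 neutrophil genes summed to 6497 CPM in the 179 cells and to 72.2 CPM in the 118, and 1 cell alone held 93.2% of the 4792 UMIs of S100a8. The 10 tumor cell genes were low in tumor 1, at 50.9 CPM summed and with Dbh and Chga at 0, but reached 1598 and 2705 CPM in the T cells of tumors 2 and 3, where 8 of 21 and 4 of 6 T cells had at least 3 of them. What part this RNA plays in the values below was not tested.

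Genes of T cell identity that the rule did not use were found in every tumor. All 20 of these genes were detected in the T cells of tumors 1 and 2 and 12 of 20 in tumor 3, and they summed to 3838, 3867 and 2404 CPM, against 2697 CPM in the NK cells, 813 CPM in the B cells and 199 CPM in the tumor cells of tumor 1. In the 118 cells with 3 or more gate genes they summed to 5991 CPM, and in the 61 cells with 2 to 492 CPM. Lck reached 228 CPM in tumor 1 (Poisson interval 203 to 254), 208 CPM in tumor 2 (95.3 to 396, 9 UMIs) and 100.2 CPM in tumor 3, which was 1 UMI. Bcl11b, a factor that fixes T cell commitment, was at 177, 139 and 100.2 CPM. The costimulatory receptor Cd28 was at 229, 139 and 301 CPM and the adhesion receptor Cd2 at 165, 162 and 601 CPM. Tcf7 was at 183 and 46.3 CPM and had no UMI in tumor 3, where 3 UMIs of the sum would be 301 CPM. The tumors thus overlapped in Lck, Bcl11b and Cd28 within counting error, as the intervals in tumors 2 and 3 are wide.

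Set against all other kept cells, the genes that stood out most were those of T cell signaling and surface receptors. Among 724 genes with at least 100 CPM in the T cells of every tumor, the ratio of the lowest T cell level to the highest level in other cells was largest for the adaptor Lat (19), the receptor Tnfrsf18 (15), Cd28 (14.5), Bcl11b (10.8), Lck (7.90), Cd2 (7.79), the membrane protein Ms4a4b (7.75), the kinase Txk (6.92), the beta chain constant gene Trbc1 (4.83) and Rinl (4.36). The ratio carries no test, as the cells were selected on genes of the same counts, and for Lat, Bcl11b, Lck, Txk and Trbc1 the level in tumor 3 was 1 UMI. Trbc1 is nearly identical to the gate gene Trbc2, so that reads may be split between them.

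B cells were the only other lymphocyte class with at least 5 cells in each tumor, and sums of raw counts of the 2 classes were compared with edgeR's quasi-likelihood test and the tumor as a block. Outside the selection genes, 554 genes were deep enough to be tested, of which 10 (1.81%) were higher and 14 (2.53%) lower in T cells at an adjusted p under 0.05. Ms4a4b was at 402, 1019 and 301 CPM in the T cells of tumors 1, 2 and 3 and at 36.8, 0 and 0 CPM in the B cells, a log2 ratio of 3.67 ± 0.42 (SE, n = 3 tumors, edgeR adjusted p = 0.000333). The integrin chain Itgb1 was at 353, 417 and 100.2 CPM in T cells and at 75.9, 0 and 0 CPM in B cells (log2 ratio 2.39 ± 0.40, edgeR adjusted p = 0.00473). For both genes the lowest T cell value lay above the highest B cell value, but for Itgb1 that lowest value was 1 UMI in tumor 3. Fyb, an adaptor of T cell receptor signaling (log2 ratio 2.39), the membrane protein Fxyd5 (2.19) and the galectin Lgals1 (1.87) were also higher in the T cells of all 3 tumors. For Lgals1 the T cell value in tumor 3 was 1 UMI. With T cells of at least 3 gate genes, Ms4a4b was still called and Fxyd5 was not (log2 ratio 2.38). Itgb1, Fyb and Lgals1 were not tested there.

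Lower in T cells were the 4 tested genes of the B cell list outside the selection genes, among other genes. Ebf1, the factor that commits B cells, was at 59.3, 23.2 and 0 CPM in T cells and at 1470, 1801 and 2069 CPM in B cells, a log2 ratio of -4.96 ± 0.47 (edgeR adjusted p = 6.74e-05). Mef2c had 39.1, 0 and 0 CPM in T cells against 691, 450.2 and 517 CPM in B cells (log2 ratio -4.27 ± 0.41, edgeR adjusted p = 6.74e-05). Ly6d (log2 ratio -5.92), Ralgps2 (-3.39) and Cd74, the invariant chain of class II molecules (-2.99), were likewise lower in all 3 tumors. For Ly6d in tumor 3 this was 0 CPM against 103.4 CPM, the smallest value above 0 in that B cell sum. The class II genes H2-Aa, H2-Ab1 and H2-Eb1 did not pass the threshold (edgeR adjusted p = 0.125, 0.171 and 0.181), and Cd74 itself did not pass by DESeq2 or without the block. Over all genes tested the median log2 ratio was 0.11.

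Few genes of the T cell lists could be tested, because the sums of tumors 2 and 3 were shallow, with 43185 and 9982 UMIs in their T cells. Of the 20 identity genes 2 were tested and 1, Ms4a4b, was higher, at a median log2 ratio of 1.93. Of 18 cytokine receptor genes 1 was tested and higher, Ifngr1, at 349, 371 and 0 CPM in T cells against 131, 90.0 and 0 CPM in B cells (log2 ratio 1.49 ± 0.33, edgeR adjusted p = 0.0325). Ifngr1 did not pass by DESeq2, without the block or without the filter on low counts. It was not tested with 3 gate genes or without cells with macrophage genes. Of 20 migration genes 1 was tested and lower, the chemokine receptor Cxcr4, with 198, 116 and 100.2 CPM in T cells against 476, 360.2 and 414 CPM in B cells (log2 ratio -1.35 ± 0.30, edgeR adjusted p = 0.0274). Of 26 receptor signaling genes 1 was tested and of 16 naive genes 3, none past the threshold. None of the effector, inhibitory receptor, regulatory, costimulatory or effector cytokine genes was tested. The result rests on the blocked fit and on the depth of the sums. Without tumor 1, 2 genes were higher and 5 lower of 206 tested, without tumor 2 the numbers were 209 and 161 of 6164, without tumor 3 they were 253 and 135 of 6979, and without the block 0 and 2 of 554. Taken from cells with at least 3 gate genes, 1 gene was higher and 7 lower of 315 tested.

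The next question was how the T cells divide into the helper, cytotoxic and regulatory lineages. In tumor 1, Cd4 was detected in 67 of 179 T cells (37.4%, 30.3 to 45.0%), Cd8a or Cd8b1 in 37 (20.7%, 14.99 to 27.4%), both in 12 and neither in 87 (48.6%, 41.1 to 56.2%). Among the 118 cells with 3 or more gate genes the numbers were 64 (54.2%), 30 (25.4%), 11 and 35 (29.7%). The 12 cells with both had a median of 9152 UMIs against 6306 in the 55 cells with Cd4 alone and 6058 in the 25 with Cd8 alone. Tumor 2 had 4 cells with Cd4, 2 with Cd8a or Cd8b1 and 15 with neither, and tumor 3 had 1 cell with Cd4 and 5 with neither. In tumor cells, which should lack these genes, Cd4 was found in 1 of 124 and Cd8a or Cd8b1 in 3 of 124 in tumor 1, at a median of 2016 UMIs. When every cell was thinned to 500 UMIs, 5.59% of T cells had Cd4 and 6.15% had Cd8a or Cd8b1, against 0% of tumor cells for both. These were 10 and 11 of 179 cells in 1 random draw. Counts this small cannot show whether the surplus of Cd4 over Cd8 cells at full depth depends on depth.

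Foxp3 was detected in 19 T cells of tumor 1 (10.6%, 6.51 to 16.1%), in 0 of 21 in tumor 2, which allows up to 3 of 21 cells with a UMI and sets no limit on cells that express it at the lower depth of that tumor, and in 1 of 6 in tumor 3. All 19 cells of tumor 1 had 3 or more gate genes, 11 of them had Cd4 without Cd8, and no tumor cell of that tumor had a Foxp3 UMI. The shares of the 3 tumors could not be told apart at this depth for Cd4, Cd8 or Foxp3, as their intervals overlap.

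**Figure D2:**
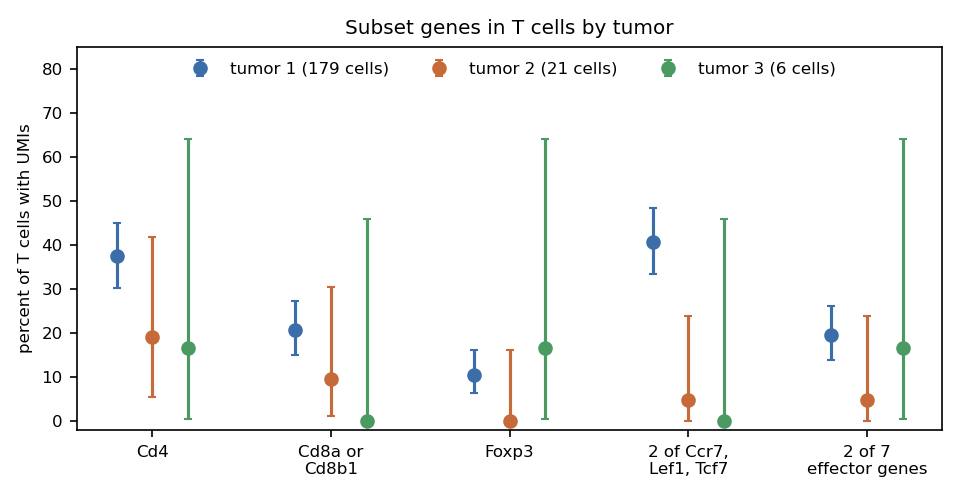
Percent of T cells with UMIs of Cd4, of Cd8a or Cd8b1, of Foxp3, of at least 2 of Ccr7, Lef1 and Tcf7, and of at least 2 of 7 effector genes, for each tumor. Points are shares and bars exact 95% binomial intervals, which overlap between tumors for Cd4, Cd8, Foxp3 and the effector set, do not overlap between tumors 1 and 2 for the naive set, and are widest for the 6 cells of tumor 3.

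Cells with Cd4 alone and cells with Cd8 alone could be compared only in tumor 1, since the other tumors had under 5 cells of each, so no test was made and intervals are exact Poisson intervals on UMIs. The sums held 430262 UMIs of 55 cells and 150043 UMIs of 25 cells, and of 6130 genes with at least 10 UMIs in both sums together 58.2% were higher in the Cd4 sum. Of 12 costimulatory genes 9 were higher in Cd4 cells and 3 in Cd8 cells, and of 16 regulatory genes 14 and 2. Of the 55 Cd4 cells, 44 had no Foxp3 UMI, and in these the 16 regulatory genes summed to 1285 CPM. The sums were 2408 CPM in all 55 and 407 CPM in Cd8 cells. Ikzf2, a factor of regulatory T cells, was at 411 CPM (353 to 477) in Cd4 cells and 26.7 CPM (7.26 to 68.3) in Cd8 cells. Cd28 was at 437 CPM (377 to 504) in Cd4 cells and 133 CPM (81.4 to 206) in Cd8 cells, and the costimulatory receptor Slamf6 at 493 CPM (429 to 564) against 93.3 CPM (51.0 to 157). Icos was found in 27 of 55 Cd4 cells and 2 of 25 Cd8 cells. Zbtb7b, the factor that sets the Cd4 lineage, was at 53.5 CPM (33.9 to 80.2) against 6.67 CPM (0.169 to 37.1), which was 1 UMI. Cd40lg, the helper ligand for B cells and dendritic cells, had 48.8 CPM in Cd4 cells and no UMI in Cd8 cells, where 3 UMIs would be 19.99 CPM.

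Of 26 effector genes 19 were higher in Cd8 cells and 7 in Cd4 cells. The granule protein Nkg7 was at 393 CPM (299 to 507) in Cd8 cells and 41.8 CPM (24.8 to 66.1) in Cd4 cells, 9.40-fold higher, and was found in 15 of 25 against 9 of 55 cells. The chemokine Ccl5 was at 3039 CPM against 277 CPM, but 1 cell held 49.3% of the 456 UMIs of the Cd8 cells, and 8 of 25 Cd8 cells and 20 of 55 Cd4 cells had it. Runx3, the factor that sets the Cd8 lineage, was at 220 CPM (151 to 309) against 102 CPM (74.3 to 137). Ctsw was at 153 CPM (97.2 to 230) against 18.6 CPM (8.03 to 36.6) and Klrd1 at 99.97 CPM (56.0 to 165) against 4.65 CPM (0.563 to 16.8). With 3 or more gate genes required, the Nkg7 ratio was 11.01 and the Runx3 ratio 2.27, and the Cd28 ratio in the other direction was 2.95. Macrophage genes moved with the Cd8 cells, at 4352 CPM summed against 981 CPM in Cd4 cells, with C1qa at 587 CPM in 2 Cd8 cells and at 0 in Cd4 cells; their part in these differences was not tested. Without the cells with macrophage genes, Nkg7 was at 447 CPM (333 to 587) in 22 Cd8 cells and 22.1 CPM (8.89 to 45.5) in 46 Cd4 cells, Runx3 at 254 CPM (170 to 365) against 69.5 CPM (43.5 to 105), and Cd28 at 158 CPM (93.4 to 249) against 521 CPM (445 to 607).

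**Figure D3:**
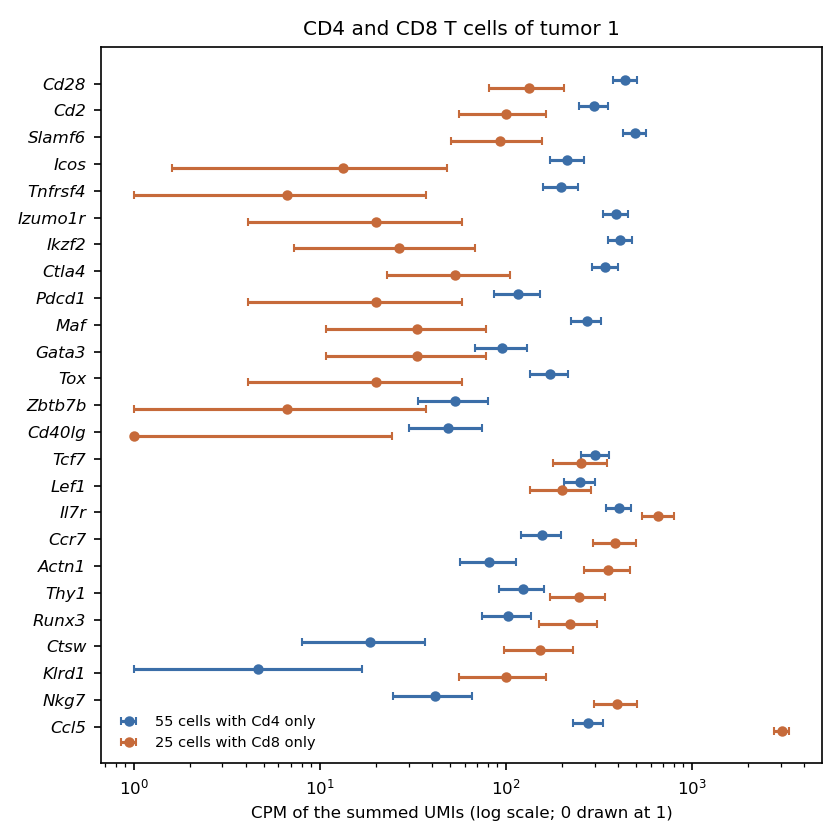
CPM of 25 genes in the summed UMIs of 55 T cells with Cd4 alone and 25 with Cd8 alone in tumor 1, on a log axis with values below 1 drawn at 1. Bars are exact Poisson intervals. Costimulatory, regulatory and helper genes lie to the right in Cd4 cells and Ctsw, Klrd1, Nkg7 and Ccl5 in Cd8 cells, while Tcf7 and Lef1 overlap. The Cd4 cells include those with Foxp3.

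Naive and effector genes were each found in part of the T cells. In tumor 1, at least 2 of the naive genes Ccr7, Lef1 and Tcf7, a set chosen after values were seen, were found in 73 of 179 cells (40.8%, 33.5 to 48.4%), at least 2 of the 7 effector genes Nkg7, Ccl5, Gzma, Gzmb, Gzmk, Prf1 and Ifng in 35 (19.6%, 14.0 to 26.1%), both sets in 12 and neither in 83. Among the 118 cells with 3 or more gate genes the numbers were 69 (58.5%), 31 (26.3%), 12 and 30. In tumor cells of tumor 1 each set was found in 1 of 124. Thinned to 500 UMIs, 5.59% of T cells held the naive and 5.03% the effector set, and no tumor cell held either. In tumor 2, where a T cell had a median of 1586 UMIs against 5808 in tumor 1, 1 of 21 T cells held the naive set (4.76%, 0.121 to 23.8%) and 1 the effector set, and in tumor 3 the numbers were 0 and 1 of 6.

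The shares of Cd4 and Cd8 cells with the naive set had wide, overlapping intervals, while the effector set was found in a larger share of Cd8 cells when 3 gate genes were required. The naive set was held by 33 of 55 Cd4 cells (60%, 45.9 to 73.0%) and 13 of 25 Cd8 cells (52.0%, 31.3 to 72.2%). The effector set was held by 12 of 55 Cd4 cells (21.8%, 11.8 to 35.0%) and 12 of 25 Cd8 cells (48.0%, 27.8 to 68.7%), intervals that overlap. With 3 or more gate genes the effector set was held by 12 of 53 (22.6%, 12.3 to 36.2%) and 12 of 19 (63.2%, 38.4 to 83.7%), intervals that do not overlap. Both sets together were found in 7 Cd8 and 3 Cd4 cells. The naive set was held by 3 of the 19 Foxp3 cells (15.8%, 3.38 to 39.6%) and by 31 of the 44 cells with Cd4 but neither Cd8 nor Foxp3 (70.5%, 54.8 to 83.2%). Among single naive genes, Ccr7 was higher in Cd8 cells at 387 CPM (294 to 499.7) against 156 CPM (121 to 198), as was the cytokine receptor Il7r at 660 CPM (536 to 803) against 404 CPM (347 to 469). Tcf7 was at 302 CPM in Cd4 and 253 CPM in Cd8 cells and Lef1 at 251 and 199.9 CPM, both with overlapping intervals.

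**Figure D4:**
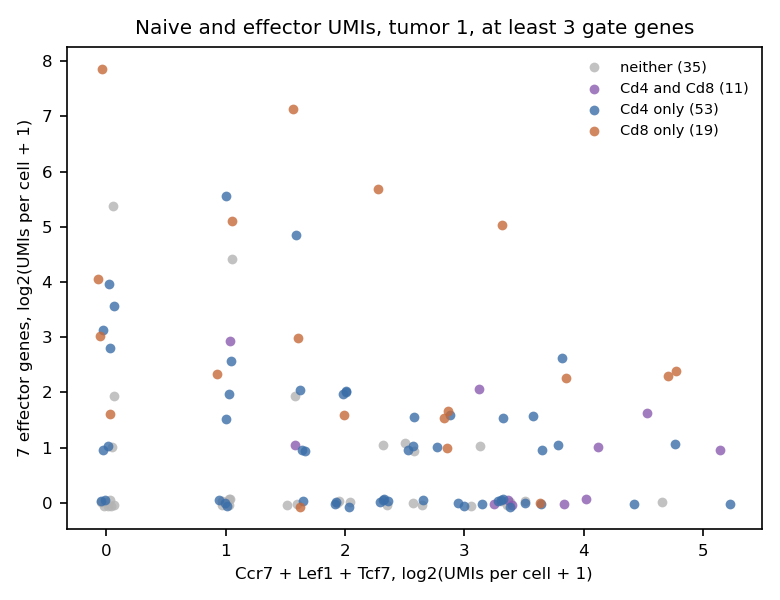
Summed UMIs of Ccr7, Lef1 and Tcf7 against summed UMIs of the 7 effector genes, both as log2(UMIs + 1), for the 118 T cells of tumor 1 with 3 or more gate genes; points are cells, spread slightly for display and coloured by Cd4 and Cd8 UMIs. Many cells lie along either axis, and the 3 highest effector sums, of 234, 136 and 50 UMIs, belong to cells with Cd8 alone that have 0, 2 and 4 naive UMIs.

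The T cell effector program was far below that of NK cells from the same tumor. In tumor 1, the 26 effector genes summed to 2163 CPM in T cells and 24110 CPM in the 29 NK cells, and 25 of the 26 were higher in NK cells, where 52.7% of 9745 genes were higher in T cells. The T cell sum differed by subset, at 4999 CPM in Cd8 cells and 1216 CPM in Cd4 cells. It was 1762 CPM in cells with 3 or more gate genes and 2786 CPM in those with 2. Gzma, a granzyme, was found in 11 of 179 T cells and 26 of 29 NK cells, at 137 CPM (119 to 157) against 5433 CPM (5122 to 5758). Gzmb was at 32.1 CPM against 764 CPM (650 to 892), a 23.8-fold difference, and the pore protein Prf1 at 22.3 CPM against 592 CPM (492 to 706), 26.5-fold. Ifng was found in 4 T cells and 6 NK cells, at 3.49 CPM against 119 CPM (77.2 to 176). Of 26 receptor signaling genes 17 were higher in T cells, and all 26 summed to 3107 CPM in T and 3032 CPM in NK cells, while of 20 migration genes 10 were higher in T cells. Higher in T cells were Cd5 at 100.5 CPM against 4.77 CPM, Lat at 141 against 9.55 CPM, and Ccr7 at 147 CPM against no UMI in NK cells, where 3 UMIs would be 14.3 CPM. In the 118 cells with 3 or more gate genes Gzma was at 8.03 CPM and Gzmb at 32.1 CPM. Cells with the largest sums of the 7 effector genes were often those with 2 gate genes, where the 6 NK receptor genes summed to 90.9 CPM against 6.88 CPM in cells with 3 or more, and 4 T cells had at least 2 of these 6. Macrophage genes summed to 12170 CPM in the NK cells, and the part of either set of genes in these differences was not tested.

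Only tumor 1 had 5 or more NK cells, so the planned blocked test could not be fitted. Without the block, and with the lone NK sum assumed to vary like the T cell sums, edgeR's quasi-likelihood test called 0 of 4098 genes in either direction (0%), with 166 at an unadjusted p under 0.05, and DESeq2 called 0 higher and 2 lower in T cells. From cells with at least 3 gate genes, edgeR called 25 higher and 48 lower of 3749. With 1 NK sum from 1 tumor, class and tumor cannot be told apart in this fit, and nothing is read from these counts.

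Of the 15 genes of the regulatory list other than Foxp3, 14 were found in a larger share of the 19 T cells with Foxp3 in tumor 1 than of the other Cd4 cells, Lrrc32 being the exception with 0 of 19 against 2 of 44, and for 6 of the 15 the intervals of the shares did not overlap. The share of all genes that lean this way between these groups was not counted, so the tally is a description and not a result about these genes. As the cells were chosen on Foxp3, which the genes below did not enter, the comparison with the 44 cells that had Cd4 without Cd8 or Foxp3 is of genes outside that choice, but from 1 tumor and without a test. Ikzf2, a factor of regulatory T cells, was found in 19 of 19 Foxp3 cells (82.4 to 100%) and 9 of 44 others (20.5%, 9.80 to 35.3%), at 1634 CPM (1432 to 1856) against 160 CPM (120 to 208). The checkpoint receptor Ctla4 was found in 17 of 19 (66.9 to 98.7%) and 15 of 44 (34.1%, 20.5 to 49.9%), at 758 against 218 CPM. Tnfrsf9 was found in 11 of 19 and 4 of 44, Tnfrsf4 in 14 and 13, and the interleukin-2 receptor chain Il2ra in 9 and 3. The factor Maf was found in 17 of 19 and 17 of 44.

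Naive genes were lower in these cells. Tcf7 was found in 5 of 19 Foxp3 cells (26.3%, 9.15 to 51.2%) and 36 of 44 others (81.8%, 67.3 to 91.8%), and Lef1 in 6 of 19 (31.6%, 12.6 to 56.6%) and 30 of 44 (68.2%, 52.4 to 81.4%). Ccr7 did not separate the groups, at 6 of 19 and 20 of 44. Median depth was close, at 6828 and 6286 UMIs per cell. Il10 was found in 3 Foxp3 cells, of which 1 held 69.2% of the UMIs. At least 3 of Ctla4, Tnfrsf4, Izumo1r and Ikzf2, a set chosen after their values were seen, were held by 35 of 179 T cells in tumor 1, among them 17 of the 19 Foxp3 cells and 1 cell with Cd8 alone, by 0 of 21 T cells in tumor 2, and by 3 of 6 in tumor 3.

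**Figure D5:**
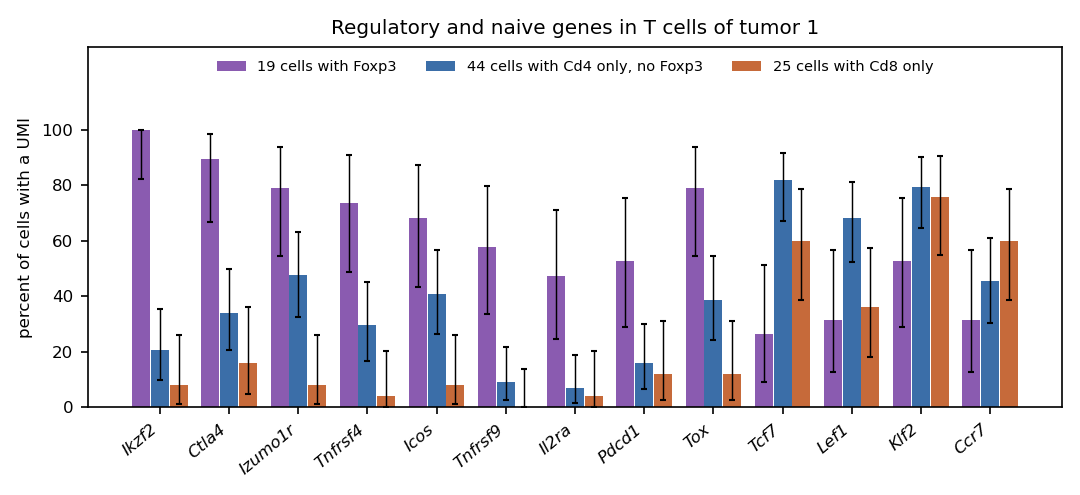
Percent of cells with a UMI of 13 genes in T cells of tumor 1 with Foxp3 (19 cells), with Cd4 but neither Cd8 nor Foxp3 (44) and with Cd8 alone (25). Bars are shares with exact 95% binomial intervals; Ikzf2 and Ctla4 are highest in Foxp3 cells, and Tcf7 and Lef1 are highest in Cd4 cells without Foxp3.

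Inhibitory receptors, which damp T cell activation, were each detected in a minority of the T cells of tumor 1 and differed in which cells carried them. In tumor 1, Ctla4 was found in 45 of 179 T cells (25.1%, 18.97 to 32.2%), Pdcd1 in 28 (15.6%, 10.7 to 21.8%), Lag3 in 20 (11.2%, 6.96 to 16.7%), Havcr2 in 19 (10.6%, 6.51 to 16.1%) and Tigit in 5 (2.79%, 0.913 to 6.398%). At least 1 of the 5 was found in 74 T cells (41.3%) and at least 2 in 31 (17.3%), against 5 and 0 of 124 tumor cells. Without the 38 cells with macrophage genes the numbers were 48 (34.0%, 26.3 to 42.5%) and 20 (14.2%, 8.89 to 21.1%) of 141. Among the 118 cells with 3 or more gate genes they were 57 (48.3%, 39.0 to 57.7%) and 27 (22.9%, 15.65 to 31.5%). Ctla4 was at 342 CPM (289 to 402) in Cd4 cells against 53.3 CPM (23.0 to 105) in Cd8 cells, and at 373 CPM (308 to 446) against 70.1 CPM (30.2 to 138) without cells with macrophage genes. These Cd4 cells include those with Foxp3. In the 44 without Foxp3 the 12 inhibitory receptor genes summed to 702 CPM, against 999 CPM in all Cd4 cells and 280 CPM in Cd8 cells. Pdcd1 was at 116 CPM (86.3 to 153) in Cd4 and 19.99 CPM (4.12 to 58.4) in Cd8 cells, but at 75.8 CPM (48.6 to 113) and 26.3 CPM (5.42 to 76.8) without cells with macrophage genes, where the intervals overlap. In Foxp3 cells Pdcd1 was found in 10 of 19 and in 7 of 44 other Cd4 cells. Lag3 was found in 9 Cd4 cells and in 0 of 25 Cd8 cells, which allows up to 3 of 25 cells with a UMI and sets no limit on cells that express it.

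Havcr2 stood apart from the other inhibitory receptors, as 98.3% of its 60 UMIs in T cells of tumor 1 came from the 38 cells with macrophage genes. It was at 41.9 CPM in all 179 T cells, 1.12 CPM in the 141 others, and 84.7 CPM in 767 cells of the tumor that were no T cells and carried at least 3 macrophage genes. For Ctla4 and Pdcd1 the cells with macrophage genes held 21.9% and 41.6% of UMIs, where they held 37.9% of all T cell UMIs of tumor 1. Tumor 2 had Ctla4 and Lag3 in 2 of 21 T cells each and Pdcd1 in 1, and tumor 3 had Ctla4 in 3 of 6 cells and no UMI of the other 4. Of the 12 inhibitory receptor genes in the files, 12, 7 and 1 were detected in the T cells of tumors 1, 2 and 3.

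Effector cytokine genes were scarce. In tumor 1, Il2 was found in 3 of 179 T cells (1.68%, 0.347 to 4.82%), Ifng in 4 (2.24%, 0.612 to 5.62%), Tnf in 14 (7.82%, 4.34 to 12.8%) and Gzmb in 11 (6.15%, 3.11 to 10.7%), while Il5, Il13 and Csf2 had no UMI in 1433144, where 3 UMIs would be 2.09 CPM. In tumors 2 and 3 none of Ifng, Tnf and Gzmb was detected, and 1 cell of tumor 2 had Il2. Il17a was found in 2 cells, 1 of which held 97.1% of its 34 UMIs. The most widespread cytokine gene was Ltb, a lymphotoxin chain, in 116 of 179 T cells (64.8%, 57.3 to 71.8%) of tumor 1, at 292 CPM against 57.3 CPM in NK cells and 284 CPM in B cells. Of the 15 cytokine genes, 12, 3 and 2 were detected in the 3 tumors.

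Genes of homing and tissue retention were mixed. In tumor 1, S1pr1, which lets lymphocytes leave tissue, was found in 86 of 179 T cells (48.0%, 40.5 to 55.6%) and the factor Klf2, which drives it, in 123 (68.7%, 61.4 to 75.4%). Cxcr3 was found in 23 cells and Cxcr6, a receptor of tissue T cells, in 14, all of which had 3 or more gate genes. Itgae, the integrin of resident T cells, was found in 11. In tumor 2, S1pr1 was found in 7, Klf2 in 6 and Cxcr6 in 3 of 21 T cells, and in tumor 3 each was found in 1 of 6. All 20 migration genes were detected in tumor 1, 13 in tumor 2 and 11 in tumor 3.

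All 26 genes of T cell receptor signaling were detected in tumor 1, 24 in tumor 2 and 10 in tumor 3, and they summed to 3107 CPM in the T cells and 1815 CPM in the other cells of tumor 1. Of the beta chain constant genes, Trbc2 alone was found in 79 T cells of tumor 1, Trbc1 alone in 5 and both in 75, and since the genes are nearly identical these numbers are uncertain. UMIs of alpha or beta V genes were found in 51 of 179 T cells, over 44 of 163 V genes, none of them in more than 3 cells, so that expanded clones could not be looked for with these 3′ counts. At least 1 of the gamma delta constant genes Trdc, Tcrg-C1, Tcrg-C2 and Tcrg-C4 was found in 10 of 179, 2 of 21 and 0 of 6 T cells, and in 0 of 124 tumor cells of tumor 1. Trdc was higher in NK cells, at 158 CPM (108 to 221) against 11.2 CPM in T cells.

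Cycling genes were not above their level in tumor cells, but in tumor 1 they were above their level in B cells. The 12 cell cycle genes summed to 668.5 CPM in T cells of tumor 1. The sum was 2621 CPM in tumor cells, 181.8 CPM in B cells and 510.8 CPM in NK cells. In the 118 cells with 3 or more gate genes it was 903.5 CPM. Cd4 cells were at 1002 CPM, Cd8 cells at 179.9 CPM and Foxp3 cells at 1434 CPM. Mki67 or Top2a was found in 41 of 179 T cells of tumor 1 (22.9%, 17.0 to 29.8%) and 70 of 124 tumor cells, and thinned to 500 UMIs in 5.03% against 27.4%. In tumor 2 it was found in 11 of 21 T cells and 404 of 626 tumor cells, and in tumor 3 in 1 of 6 T cells, where tumor cell genes were also present in the T cells. The 14 immediate early and heat shock genes, which rise when tissue is dissociated, summed to 6191, 5372 and 3406 CPM in the T cells of the 3 tumors, against 5072 CPM in B cells and 7128 CPM in NK cells of tumor 1. Cd4 cells were at 4960 and Cd8 cells at 3999 CPM.

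The 6 T cells of tumor 3 held 1408 to 1981 UMIs each. Of these, 3 carried Ctla4, Tnfrsf4 and Izumo1r together, with 2, 2 and 2 UMIs of Ctla4, 3, 1 and 3 of Tnfrsf4 and 2, 1 and 3 of Izumo1r. Ikzf2 was found in 2 of these 3, Foxp3 and Cd4 in another cell of the 3, and Il2ra in 1. The other three cells held none of Foxp3, Ctla4, Tnfrsf4, Izumo1r or Il2ra, but 1 of them had 2 UMIs of Ikzf2 and 1 of Maf, and another had 1 UMI each of Tnfrsf9, Nkg7 and Prf1. All 6 cells had UMIs of the tumor cell gene Chgb, with 1 to 4 each. The 21 T cells of tumor 2 leaned on other genes, with Ms4a4b in 14, Il7r in 10 and Ets1 in 8, and with Ctla4, Tnfrsf18 and Icos in 2, 2 and 3.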

How the data were processed

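Whole tumors of 3 TH-MYCN mice were profiled with 10x Genomics 3′ v3.1 libraries. The authors deposited, for every tumor, a table of raw UMI counts by gene and barcode made with Cell Ranger 3.1.0 on mm10. They also deposited normalized values as a natural log of 1 plus an ambient-corrected count, after quality filters and doublet removal, with Seurat 3.1.5 among the tools named in their processing notes. The second file defined the kept cells and supplied corrected counts for 1 alternative, and all other values came from raw counts.

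The members and gene lists were chosen with earlier results of these data known. Genes named are those of the lists, up to 5 genes in each direction per tested comparison with the largest change (adjusted p under 0.05, same direction in every tumor, at least 50 CPM in the higher class, selection, ribosomal, mitochondrial and immunoglobulin genes left out), and the 10 genes with the largest ratio to other cells. Raw counts were added up over the cells of a class within a tumor, where it had 5 or more cells, and tested with edgeR 4.0.16 in R 4.3.3 (filterByExpr, TMM, quasi-likelihood test, Benjamini-Hochberg over all genes tested, threshold 0.05), with the tumor as a block because the classes come from the same animals. Deviations of T and B cell sums from their class means correlated at 0.784, 0.405 and 0.51 within tumors 1, 2 and 3. The designed tests of T against NK cells with the block and of Cd4 against Cd8 cells could not be fitted, as only tumor 1 had 5 cells of each class. On counts simulated for T against B cells, with 488 genes tested, 96.6% of genes changed 4-fold and 29.1% of genes changed 2-fold were called, and 0% of unchanged genes. The simulation gave both sums of a tumor the same tumor effect, used 1 fixed spread for all genes and held no RNA of other lineages. These shares are therefore not error rates of the real data. Thinning drew 500 UMIs per cell. Shares have exact binomial and summed UMIs exact Poisson intervals at 95%, with a floor of 3 UMIs for 0, and both cover counting error only. Tumor cells for background shares had at least 3 of 10 tumor cell genes and no Ptprc UMI. Gene positions are from GENCODE M21 and promoters from RefSeq. Alternatives were DESeq2 1.42.0, no block, no low-count filter, RLE factors, a stricter gate, corrected counts, thinning, and leaving out each tumor or the cells with macrophage genes, which for shares of cells was chosen after seeing the data. The naive set of 3 genes was chosen after values were seen, in place of the set first planned. Results for 2 genes are not reported here, and other data of the study are not analysed here.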

Additional observations from a re-analysis of the deposited data

Results flagged for a closer look

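Barcodes that the authors removed before normalization also held T cell genes. In tumor 1, 196 of 1343 removed barcodes met the same T cell gate, more than the 179 kept T cells, while none of 3106 did in tumor 2 and 2 of 3523 in tumor 3. These 196 had a median of 926.5 UMIs and a median mitochondrial share of 29.2%, with 178 of them at 20% or above. At least 3 of the 20 further T cell genes were found in 164 of them and Lck in 75, only 5 had 3 macrophage genes, and 47 had 3 or more gate genes. Cd4 was found in 20 (10.2%), Cd8a or Cd8b1 in 41 (20.9%) and Foxp3 in 4, so that the order of Cd4 and Cd8 is the opposite of that in the kept T cells, where 67 had Cd4 and 37 had Cd8; depth differed between the 2 sets, and the difference was not tested.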

How the results depend on the processing

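The T cell sums ranged from 9982 to 1433144 UMIs, and the number of genes tested and called moved with the libraries and the filter used. The T cell share of kept cells in tumor 1 (9.35%) was 6.17% with at least 3 gate genes, 7.001% on corrected counts, 3.76% after thinning and 12.8% without cells with macrophage genes. In tumor 2 (1.72%) it was 0.573% with 3 gate genes and 0.819% after thinning, and in tumor 3 all alternatives stayed within the interval. Of 60 alternative values of subset shares, 44 stayed within the main interval and 16 moved. Of the 16, 9 moved by thinning, 6 with 3 gate genes, 1 on corrected counts and none by leaving out cells with macrophage genes. In tumor 1 the shares with Cd4, Foxp3, the naive set and the effector set all rose out of their intervals with 3 gate genes. The intervals of tumors 2 and 3 are wide, so that staying within them says little.

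For T against B cells (10 higher, 14 lower), the replicate block decided the result, with 0 higher and 2 lower without it. Without the low-count filter 216 were higher and 169 lower of 15854 genes, with RLE factors 22 were lower, and with 3 gate genes 1 was higher and 7 lower. Leaving out each tumor gave 2 to 253 higher and 5 to 161 lower. Of the 24 called genes, 17 were called by DESeq2, 2 without the block, 20 without the filter, 23 with RLE factors, 8 of 11 tested with 3 gate genes, 16 of 17 tested on corrected counts, and no direction reversed.

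For T against NK cells (0 and 0), lower genes numbered 2 by DESeq2 and 6 without the filter. With 3 gate genes 25 were higher and 48 lower, on corrected counts 2 and 11, and without cells with macrophage genes 5 and 26. Leaving out tumor 2 or 3 gave 0 to 15 higher and 3 to 17 lower, and without tumor 1 no NK sum was left. The causes of these changes were not tested beyond the number of genes and cells that each alternative leaves. For Cd4 against Cd8 cells there was no test to repeat, and for some genes the values with 3 gate genes or without cells with macrophage genes stand beside the main ones.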
